A study of Mus musculus with 22 samples.

Results

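DNA methylation in the forebrain was followed at 10 genes of the early embryonic pluripotency programme: Pou5f1, Nanog, Dppa2, Dppa3, Dppa4, Dppa5a, Zfp42, Utf1, Esrrb and Tdgf1. They were chosen as genes that are active at the stage of exposure, E2.5, and off in the E10.5 forebrain, and for each of the 10 genes every CpG with at least 10 reads was taken from 3 kb upstream of the gene to 1 kb past its end (RefSeq annotation, GRCm38). The rule uses no methylation value, but the genes were proposed with earlier results of these data known. Of 2201 reference CpGs in the Esrrb window and 73 to 241 in each of the other 9 windows, 612 CpGs were read at this depth in at least 1 sample, and 184 in at least 5 samples of both conditions, out of 592579 such CpGs on chromosomes 1 to 19. The samples were 22 whole forebrains of wild-type C57BL/6 embryos at E10.5, each from 1 embryo and 1 reduced representation bisulfite library, a method that reads DNA methylation near MspI sites (CCGG). Of these embryos 6 came from saline-injected dams (control) and 16 from dams injected with ethanol at E2.5 (EtOH-exposed). All carried the same genotype, and the study chose embryos without visible defects from a small number of litters. Litter and sex could not be assigned to the samples here. In both groups the embryos outnumbered the litters, so embryos of 1 litter entered as separate samples. Transcripts were not measured, so that the genes are off in this tissue was taken from the definition of the set and was not checked.

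Pluripotency genes keep early blastomeres, the inner cell mass and embryonic stem cells able to form every lineage. Pou5f1 (Oct4) and Nanog encode the core transcription factors, and Esrrb, an orphan nuclear receptor, and Zfp42 (Rex1), a zinc finger protein, belong to the naive state. Utf1 encodes a chromatin-associated factor, Dppa2 and Dppa4 a pair of DNA-binding partners, Dppa3 (Stella) a maternal factor that guards the zygotic genome against demethylation, Dppa5a an RNA-binding protein, and Tdgf1 (Cripto) a co-receptor of Nodal. After implantation the genome is remethylated, and several of these genes gain methylation at their promoters while they are shut down. Promoters rich in CpGs tend to remain free of methylation even when a gene is silent.

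Sequenced depth ranged from 68126469 to 132488556 CpG calls in controls and from 89179413 to 216223892 in EtOH-exposed samples, with a median coverage of 13 to 26 and 12 to 28 reads. The libraries stood apart in ways that touch the values below. At 18544 tiles with a median level under 1%, the EtOH-exposed samples 4, 5 and 6 read 2.40 to 2.53%, against 0.67 to 1.52% in controls, and 6 EtOH-exposed samples read 0.257 to 0.311%. At tiles read in all 22 samples with a mean of 80% or more, EtOH-exposed 4, 5, 6 and 14 read 87.2, 86.4, 87.1 and 87.6%, the other 12 EtOH-exposed samples 89.6 to 92.2% and the controls 90.9 to 92.4%. At the members, between 160 and 429 CpGs had at least 10 reads in a control sample and between 169 and 481 in an EtOH-exposed sample, with control 2 the lowest and EtOH-exposed 16 the highest. A level over a set of CpGs can therefore differ between samples because different CpGs were read.

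The reach of the assay differed greatly between the 10 genes. Utf1 had 90 CpGs with at least 10 reads in some sample, 47.6% of the CpGs in its window. Esrrb had 346 (15.7%), Zfp42 59 (24.5%), Pou5f1 34 (23.6%), Dppa3 27 (21.1%), Tdgf1 25 (13.7%) and Dppa2 13 (9.22%). Dppa4 and Dppa5a had 8 each, and Nanog 2, both read in controls 1 and 2 and in no EtOH-exposed sample. RefSeq promoter sequences were at hand for 6 of the 10 genes (Pou5f1, Nanog, Zfp42, Utf1, Esrrb and Tdgf1), and none for Dppa2, Dppa3, Dppa4 and Dppa5a. In the 250 bases before the start site, Utf1 holds 14 CpGs, Zfp42 9, Pou5f1 8, Tdgf1 7, Nanog 3 and 2 at its 2 start sites, and Esrrb 6 and 3, against a median of 6 over 32851 mouse promoters. A CCGG site lies in 3 of these 9 sequences, those of the first start site of Pou5f1 and of both start sites of Esrrb, and in 47.1% of all promoters.

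The 5 sequences printed here are of promoters and of tiles named in the results, with each CpG in capitals (RefSeq, GRCm38). The 250 bases before the first Pou5f1 start site (chr17:35505782-35506031, plus strand) and before the second Esrrb start site (chr12:86421394-86421643, plus strand) are shown as start sites that hold a CCGG and were read in few controls. Of their 8 and 3 CpGs, 5 and 3 were read at this depth in some sample, in no control at Pou5f1 and in at most 1 at Esrrb. Before the first Esrrb start site, which is not printed, 2 of 6 CpGs were read, in up to 5 controls. The 100 bp tiles in the coding sequence of Utf1 (chr7:139944301-139944400, plus strand) and of Zfp42 (chr8:43295801-43295900, minus strand) are CpG-rich stretches read in 21 samples each, nearly unmethylated at Utf1 and nearly fully methylated at Zfp42. The tile in intron 2 of Esrrb (chr12:86473601-86473700, plus strand) was the place with the largest difference between conditions among the 37 tiles analysed at the 10 genes.
Pou5f1 before the first start site: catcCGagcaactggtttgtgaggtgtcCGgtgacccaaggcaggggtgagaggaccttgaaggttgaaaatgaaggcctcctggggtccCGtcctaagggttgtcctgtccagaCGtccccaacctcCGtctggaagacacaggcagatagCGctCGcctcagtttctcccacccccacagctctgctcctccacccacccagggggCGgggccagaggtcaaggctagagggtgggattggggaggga
Esrrb before the second start site: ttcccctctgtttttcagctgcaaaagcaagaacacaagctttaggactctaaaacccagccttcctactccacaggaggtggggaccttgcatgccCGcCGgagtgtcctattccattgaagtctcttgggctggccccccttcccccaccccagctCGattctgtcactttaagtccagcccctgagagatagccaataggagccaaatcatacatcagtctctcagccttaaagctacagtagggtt
Utf1 coding exon 1 tile: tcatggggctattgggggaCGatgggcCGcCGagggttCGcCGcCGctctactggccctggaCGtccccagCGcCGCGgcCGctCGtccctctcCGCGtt
Zfp42 coding exon 4 tile: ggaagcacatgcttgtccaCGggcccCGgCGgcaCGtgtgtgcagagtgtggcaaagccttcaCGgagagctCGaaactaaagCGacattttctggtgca
Esrrb intron 2 tile: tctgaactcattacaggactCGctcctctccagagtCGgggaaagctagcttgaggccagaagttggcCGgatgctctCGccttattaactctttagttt

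In control forebrains the 10 genes did not share a methylation state. Of the 184 CpGs with values in at least 5 samples of both conditions, 106 (57.6%) had a control mean under 10%, 63 (34.2%) of at least 80% and 15 (8.15%) in between. Over all 592579 such CpGs of the genome these shares were 64.4%, 27.3% and 8.24%. Among these 184 CpGs most genes fell on 1 side. All 28 CpGs of Zfp42, all 3 of Dppa2, both of Dppa4, all 3 of Tdgf1 and 5 of 6 of Dppa5a were at 80% or more. All 47 CpGs of Utf1 and 7 of 8 of Pou5f1 were under 10%. Esrrb held both states within 1 gene, with 52 CpGs under 10%, 12 in between and 22 at 80% or more. The plot of single CpGs gives the means of both conditions side by side along each gene.

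**Figure D1:**
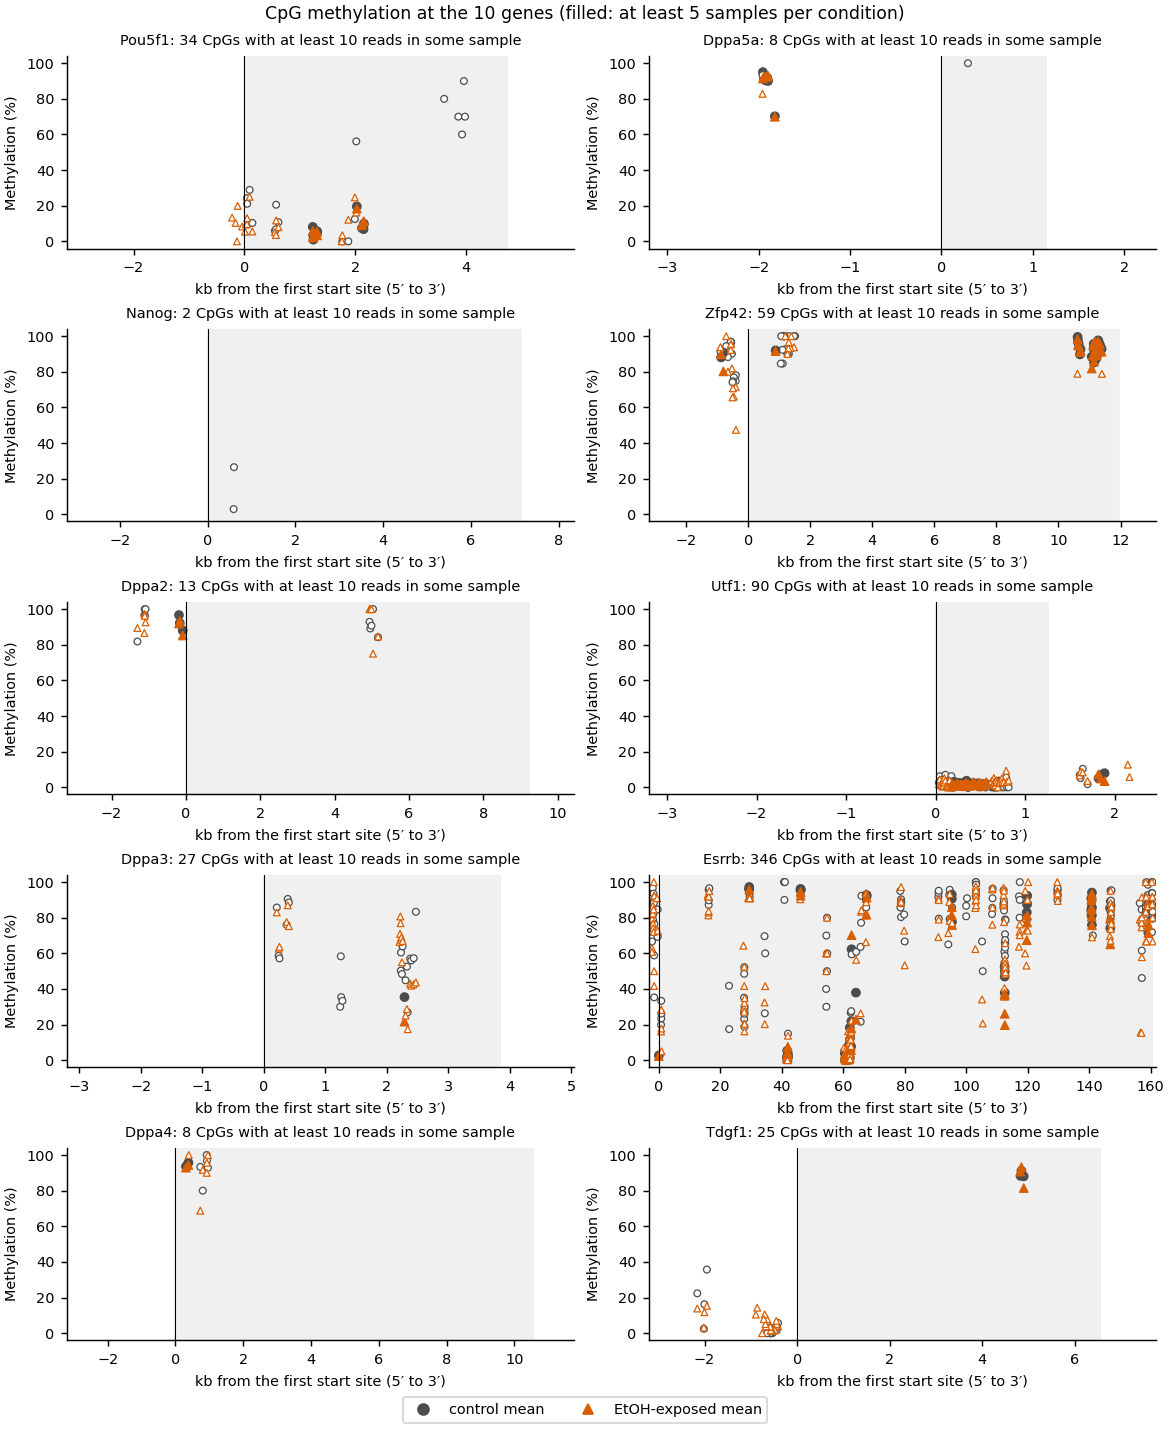
Mean methylation (%) of each CpG at the 10 genes against the distance in kb from the first start site, circles for controls and triangles for EtOH-exposed forebrains. Large filled symbols had at least 5 samples per condition and small open ones fewer, and grey marks the gene. Zfp42, Dppa2, Dppa4 and the Tdgf1 intron sit near the top, Utf1 near 0, and Esrrb holds CpGs at both ends.

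Zfp42 was methylated wherever it was read. Its promoter (1000 bp upstream to 100 bp downstream of the start site) was at 93.0, 87.3, 91.7, 85.9 and 89.2% in controls 1, 3, 4, 5 and 6, a mean of 89.4% ± 2.96 (SD, n = 5). This level rests on 2 of the 14 CpGs read there, the only ones with enough samples. All 5 controls lay above the 80% that 5.28% of the 11998 promoters tested reached. Closer to the start site single CpGs lay on either side of this mean. Their control means were 96.3 to 96.9% from -564 to -551 bp and 74.2 to 78.1% from -508 to -399 bp relative to the start site, read in 2 to 4 controls. Over all CpGs read from -900 to -399 bp the EtOH-exposed embryos ranged from 60.9 to 89.7% (n = 11) and the controls from 85.3 to 88.3% (n = 5), on CpGs that differed between samples and without a test. In intron 1, control 1 read 98.2% and control 6 read 94.7%. The coding sequence in exon 4 reached 93.5% ± 1.93 (SD, n = 6) over 27 CpGs. Of its 5 tiles of 100 bp, 3 have another place in the genome with at least 90% identity, so that reads there cannot be told apart with certainty from those of a copy.

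Dppa2 carried 3 CpGs from -188 to -87 bp relative to its start site. In controls their level ranged from 86.8% to 97.0% with a median of 92.4%. Further upstream, from -1306 to -1087 bp, only control 6 was read among controls, at 94.96%, and EtOH-exposed samples at 88.9 and 95.2%. In intron 4, control 6 read 91.4% and EtOH-exposed 16 read 91.9%. The Dppa2 promoter was thus methylated at a level that 97.8% of all promoters tested stayed below. Its partner Dppa4, which lies near it on chromosome 16, was read only inside intron 1, from 309 to 957 bp past the start site. The 2 CpGs with enough samples were at 89.0 to 100% in the 6 controls, with a median of 94.3%.

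Dppa5a was read 1.82 to 1.96 kb upstream of its start site, outside the promoter as defined here, and at 1 CpG of intron 1, at 290 bp, in 1 control (100%, 17 reads, with 2 other places of high identity in the genome). Controls 1, 3, 4, 5 and 6 read 83.6, 89.5, 89.6, 90.8 and 86.9% there. One of its 2 tiles has 49 other places in the genome of at least 90% identity. Tdgf1 differed between its parts. The 3 CpGs in intron 5 were at 94.8, 89.6, 80.6, 92.3 and 88.6% in controls 1 to 5, whereas 18 CpGs from -893 to -413 bp were nearly unmethylated. There, 1.57% of the 638 reads of control 6 were methylated (95% Wilson interval 0.85 to 2.86%), and 4.29, 4.64, 4.28, 0 and 4.89% of the reads of EtOH-exposed 4, 5, 6, 14 and 16. The 0 came from 130 reads, and its Wilson interval reached 2.87%. These intervals cover counting error only. Only 1 control read the Tdgf1 promoter, so the groups were not compared there.

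Utf1 was nearly unmethylated wherever it was read within the gene, from 33 to 812 bp past the start site. Its 10 CpGs from 33 to 95 bp, which count as promoter, had control means of 1.04 to 6.21% in 4 controls, 1 too few for the promoter to be tested. Beyond 562 bp only 1 control was read. Over the 44 CpGs of coding exon 1 with enough samples, controls ranged from 0.953 to 2.41% with a median of 1.43%, at 1865 to 12353 reads per sample over both conditions. The highest single CpG of the 47 had a control mean of 7.94%, and it lay downstream of the gene. That stretch, 1.61 to 2.16 kb past the start site, lies in a window that also holds the gene Kndc1. The low levels moved with the library. In the 6 EtOH-exposed samples with 0.257 to 0.311% at unmethylated tiles Utf1 read 0.59 to 1.08%, in the 13 samples at 0.67 to 1.52% it read 0.95 to 2.41%, and in EtOH-exposed 4, 5 and 6 it read 2.94 to 3.21%. Whether these levels are methylation or incomplete conversion of unmethylated cytosines was not tested.

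Pou5f1 lay between these states, at low levels. Near the first start site, at 44, 49 and 94 bp, the control means were 24.2% ± 6.64, 21.1% ± 3.94 and 28.9% ± 6.62 (SD, n = 4), and the EtOH-exposed means 9.74, 13.1 and 25.1% (n = 13). Over all CpGs read from -222 to 613 bp, controls averaged 16.3% ± 5.95 (SD, n = 5) and ranged from 7.71 to 22.3%, and EtOH-exposed embryos averaged 10.8% ± 3.93 (SD, n = 16) and ranged from 4.51 to 17.5%. The groups overlapped, the samples read 3 to 14 of the 15 CpGs, and with at most 4 controls at any of these CpGs the region was not tested. In intron 1, from 1.23 to 1.31 kb, 4 CpGs were at 0.96 to 8.12%, and at 2.03 kb 1 CpG was at 19.6% ± 5.58 (SD, n = 5). The 5 CpGs upstream of the first start site, part of the sequence printed above, were read in 2 EtOH-exposed samples and no control, at means of 0 to 19.9%. The neighbouring CpG at 2018 bp was at 56.1% ± 14.1 (SD, n = 2) in controls and 16.2% in EtOH-exposed embryos (n = 5). Towards the end of the gene, at 3.60 to 3.98 kb, control 6 read 37 of 50 reads as methylated, 74.0% (95% Wilson interval 60.5 to 84.1%). Promoters of the genome were mostly lower than Pou5f1: 88.5% of those tested had a control mean under 10%, and 88.8% lay below its region before the second start site, at 10.98%. Of the 3 member promoters tested, 2 (Zfp42 and Dppa2) were at 80% or more and none under 10%. The Utf1 and Tdgf1 promoters, low where they were read, had too few controls to enter this count. Esrrb did not enter it either, since its promoter had too few CpGs read in enough samples. Its CpGs from 60.2 to 62.7 kb, around the second start site, averaged 4.48% in controls. From -567 to -9 bp relative to its first start site, control 6 averaged 58.2%.

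Dppa3 was partly methylated along its length. At 212 to 409 bp in intron 1, control 6 read 76.1% and EtOH-exposed samples 4, 5, 6 and 16 read 77.7, 65.8, 80.8 and 77.9%. At 1.24 to 1.28 kb controls 1 and 2 averaged 41.8% ± 11.6 (SD, n = 2). Over 17 CpGs of exon 2 and intron 2 controls 1, 2, 3, 5 and 6 read 55.0, 63.4, 52.4, 41.1 and 49.0%. EtOH-exposed samples there ranged from 37.0 to 87.2% with a median of 59.3% (n = 15), but the samples read different CpGs of the 17 and only 1 CpG had enough samples, so the groups were not compared. That CpG, at 2290 bp, was at 35.4% ± 9.43 (SD, n = 5) in controls and 21.7% ± 9.78 (SD, n = 11) in EtOH-exposed embryos, lower where the cluster level was higher. Nanog was read at 2 neighbouring CpGs of intron 1, 594 and 602 bp past the first start site. They gave 20.6% in control 1 (34 reads, 95% Wilson interval 10.4 to 36.8%) and 8.82% in control 2 (34 reads, 3.05 to 23.0%), intervals that overlap.

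Esrrb, the longest of the 10 genes, switched repeatedly between the states. A CpG 9 bp before the first start site was at 2.68% ± 3.75 (SD, n = 5) in controls. Over 2 to 4 CpGs from -567 to -9 bp, control 6 averaged 58.2%, and EtOH-exposed 5, 6 and 16 averaged 4.07, 42.3 and 1.19%. From -2243 to -1465 bp control 6 read 78.3%, and EtOH-exposed 6 and 16 read 62.6 and 78.9%. The CpGs from 0.707 to 0.866 kb were at 25.7% ± 4.87 (SD, n = 4) in controls. Farther into intron 1 the clusters at 29.4 and 46.0 kb were at 95.9% ± 2.54 and 95.8% ± 1.68 (SD, n = 5 each), while the island between them at 41.7 to 42.0 kb was at 2.86% ± 0.92 (SD, n = 6). Around the second start site, at 60.5 kb, 112 CpGs from 60.2 to 62.7 kb averaged 4.48% ± 1.65 (SD, n = 6), and at 62.7 kb a single CpG marked the far edge with 62.3% ± 12.6 (SD, n = 5). Beyond it the clusters read in at least 4 samples per condition were at 81.2 to 93.8% in controls, apart from those at 64.1 kb, at 49.7% ± 6.90 (SD, n = 4), and in intron 2 at 112 kb, at 50.3% ± 13.2 (SD, n = 6). The tile of 29.4 kb and the cluster at 46.0 kb match many other places in the genome.

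**Figure D2:**
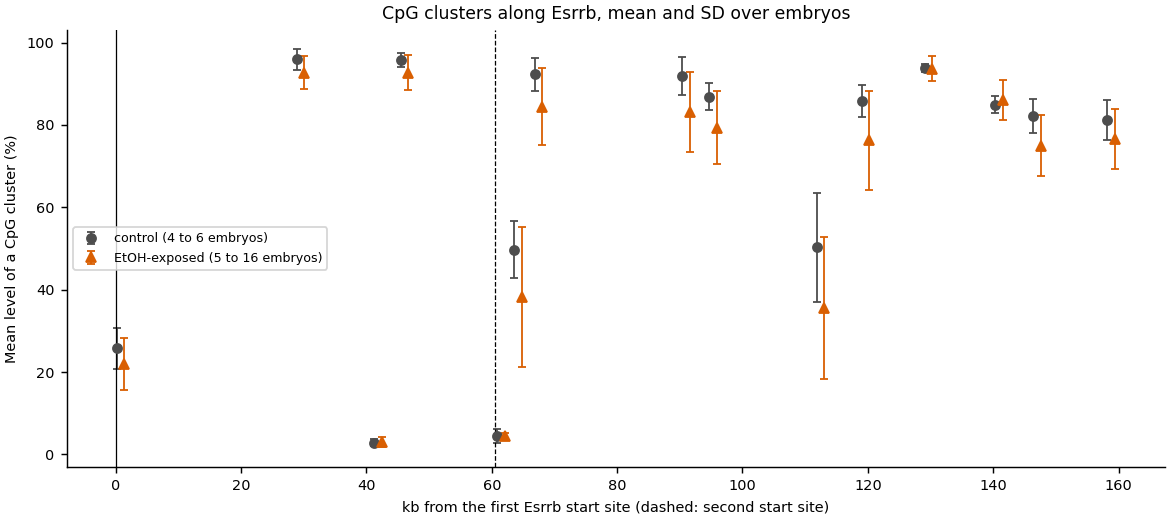
Mean level (%) of each Esrrb CpG cluster with values in at least 4 samples per condition, with SD over embryos, against the distance in kb from the first start site (solid line). The island at 41.7 kb and that at the second start site (dashed line) are at 2.86 and 4.48% in controls, and the cluster at 112 kb at 50.3%.

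Whether ethanol at E2.5 shifted these levels was tested on 11 regions of 8 of the genes, namely those that kept 5 or more embryos in each condition with 2 or more CpGs read. Embryos were compared by an exact permutation test (two-sided), as they were for every other gene on chromosomes 1 to 19. None of the 11 regions had a p under 0.05, and the lowest p was 0.22. The differences ran from -4.38 to 1.47 percentage points, with 8 lower and 3 higher in the EtOH-exposed group. Nanog and Dppa3 had no region that could be tested. Embryos of both groups came from few litters, so p-values measure the spread between embryos and not between litters.

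At promoters 0 of 3 members passed, where 2.44% of the 11998 promoters tested had a p under 0.05 and none passed after adjustment (smallest adjusted p 0.268). The Zfp42 promoter was at 85.0% ± 8.31 (SD, n = 7) in EtOH-exposed and 89.4% ± 2.96 (SD, n = 5) in control forebrains, a difference of -4.38 percentage points with an SE of 3.41 (p = 0.319, exact permutation test). In the EtOH-exposed group it ranged from 67.6 to 92.5% with a median of 86.1%, and 3 embryos lay below the lowest control. The low value, 67.6%, came from EtOH-exposed 15, with 35 reads at the 2 CpGs. EtOH-exposed 5 and 6, at 61.2 and 60.9% over 9 other CpGs of this promoter (442 and 310 reads), did not have these 2 CpGs and entered neither this test nor that of the spread. EtOH-exposed 5 and 6, unlike 15, are among the 4 samples with low levels over methylated tiles. The Dppa2 promoter ranged from 79.9 to 97.5% with a median of 92.3% in EtOH-exposed embryos, and averaged 90.4% ± 4.54 (SD, n = 16), against a control mean of 91.8% ± 3.77 (SD, n = 6), with p = 0.51 in the exact permutation test. EtOH-exposed 14 and 4 were lowest, at 79.9 and 81.6%, and the groups overlapped otherwise. Both are among the 4 samples with low levels over methylated tiles. EtOH-exposed 5 and 6, also among these 4, read 86.9 and 97.5% (68 and 40 reads). The part of the sample-wide levels in these Dppa2 values was not tested. Before the second Pou5f1 start site, controls 1, 3, 4, 5 and 6 read 2.5, 10.1, 13.1, 15.2 and 13.9%, and EtOH-exposed embryos 5.01 to 20.5% with a median of 13.01%. The EtOH-exposed mean was 12.4% ± 4.10 (SD, n = 12) and the control mean 10.98% ± 5.10 (SD, n = 5), with p = 0.541 in the exact permutation test, and 10 of the 12 exposed embryos fell within the control range.

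In gene bodies 0 of 6 members passed, where 12.9% of 17824 gene bodies had a p under 0.05, again with none after adjustment (smallest adjusted p 0.199). At the CpGs tested, 3 of the 6 bodies were at 80% or more in controls and 2 under 10%. These levels rest on 2 CpGs in Dppa4, 3 in Tdgf1, 4 in Pou5f1, 26 in Zfp42, 44 in Utf1 and 85 in Esrrb. Elsewhere in the Pou5f1 body, at 3.60 to 3.98 kb, control 6 read 74.0%. The median difference over all gene bodies was -1.30 percentage points. Utf1 was at 1.52% ± 0.85 (SD, n = 16) and 1.52% ± 0.50 (SD, n = 6), and the difference of -0.002 percentage points had an SE of 0.296. Pou5f1 was at 4.22% ± 1.32 (SD, n = 16) and 4.85% ± 0.74 (SD, n = 5), with an SE of the difference of 0.466 percentage points. The 3 methylated bodies were Dppa4 at 93.6% ± 1.71 (n = 16) against 94.7% ± 3.96 (n = 6), Zfp42 at 92.8% ± 1.36 (n = 16) against 93.4% ± 2.10 (n = 6), and Tdgf1 at 90.4% ± 5.45 (n = 11) against 89.2% ± 5.35 (n = 5), all with SD. The SE of these differences was 1.67, 0.922 and 2.903 percentage points, so a shift of a few points at Tdgf1 was not detectable at this depth and sample number. By comparison, the 4814 gene bodies of the genome with a control level of at least 80%, 27.0% of those tested, had a median difference of -2.02 percentage points, and the 5832 under 10%, 32.7% of those tested, one of 0.027.

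Outside the genes 0 of 2 regions passed, where 7.55% of 3325 upstream and 7.09% of 1889 downstream regions had a p under 0.05. Upstream of Dppa5a the level was 88.6% ± 4.71 (SD, n = 14) in EtOH-exposed and 88.1% ± 2.88 (SD, n = 5) in control forebrains, with p = 0.836 in the exact permutation test. EtOH-exposed 4 and 5 were lowest there, at 77.8 and 80.7%, and EtOH-exposed 6 read 83.6%. These 3 samples had the lowest levels of the 22 over methylated tiles, and the highest over unmethylated tiles. Without them the EtOH-exposed mean was 2.63 percentage points above controls (exact permutation p = 0.0382, a setting chosen after seeing the data), where 9.05% of upstream and 8.24% of downstream regions had a p under 0.05. Downstream of Utf1 the level was 4.84% ± 2.80 (SD, n = 16) in EtOH-exposed and 6.63% ± 2.61 (SD, n = 5) in control embryos, with p = 0.22 in the exact permutation test. Weighted by coverage the difference there was -2.60 percentage points (exact permutation p = 0.0209), where 6.35% of downstream and 7.67% of upstream regions had a p under 0.05.

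**Figure D3:**
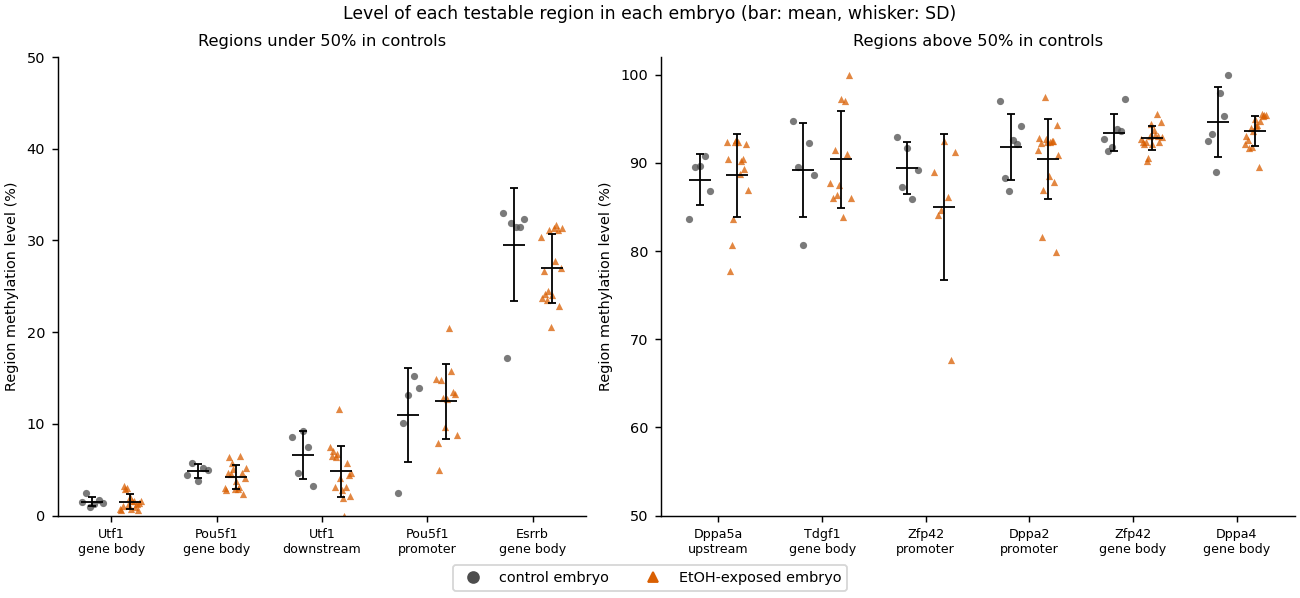
Methylation level (%) of the 11 testable regions in each embryo, circles for control and triangles for EtOH-exposed, with mean and SD, in order of the control mean. The left panel covers low levels from 0% and the right panel levels over 50%. The groups overlap in every region, and control 2 stands apart in the Esrrb gene body at 17.1%.

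The Esrrb gene body gave different results with different ways of combining its CpGs. Its gene body, over 85 CpGs, was at 27.0% ± 3.75 (SD, n = 16) in EtOH-exposed and 29.6% ± 6.11 (SD, n = 6) in control forebrains, with p = 0.24 in the exact permutation test. Control 2 lay at 17.1%, the other 5 controls between 31.5 and 33.0%, and the EtOH-exposed embryos between 20.5 and 31.7% with a median of 26.8%. Control 2 had reads at 55 of the 85 CpGs, against 68 to 85 in the other controls. Without control 2 the difference was -5.06 percentage points (exact permutation p = 0.00536), where 15.7% of gene bodies had a p under 0.05. At a minimum of 20 reads it was -6.08 percentage points (exact permutation p = 0.0385, against 10.6% of gene bodies). The samples at 0.67 to 1.52% over unmethylated tiles, all 6 controls and 7 EtOH-exposed embryos, formed a library group. It was set by this level, and the labels name no batch. Within it, with control 2 included, the difference was -0.942 percentage points (exact permutation p = 0.699). Its 7 EtOH-exposed embryos read 20.5 to 31.4%, and its controls other than control 2 read 31.5 to 33.0%. The library group was not tested without control 2. With each CpG taken relative to its control mean, so that a missing CpG does not shift a sample, control 2 fell in with the other controls at 32.5%. The group difference was then -1.90 percentage points (permutation p = 0.0366), at 30.1% ± 2.06 (SD, n = 16) against 32.0% ± 0.49 (SD, n = 6). By this measure 11 of 16 exposed embryos lay below the lowest control. Where CpGs are missing, controls are drawn towards their own mean, which narrows their spread. The control means were not recomputed when labels were permuted, so the p is approximate. Without control 2 it was 0.0712 (permutation test). By this measure 11.5% of all gene bodies had a p under 0.05 and the adjusted p of Esrrb was 0.425. Relative to the mean of both groups, a setting added after seeing the data, the permutation p was 0.0317 and the share of gene bodies 13.1%. Without control 2 the permutation p of this measure was 0.0644. Weighting by coverage gave -13.9 percentage points (exact permutation p = 0.00063, adjusted p = 0.031), in a setting in which 22.1% of gene bodies had a p under 0.05 and 718 passed after adjustment. A weighted level also moves with where the reads fall: in the low CpGs around the second start site EtOH-exposed samples had 5370 to 26190 reads and controls 2924 to 9147. The gap was widest in EtOH-exposed 13, at 9.44% weighted, 31.2% unweighted and 31.8% relative to control means. In EtOH-exposed 12 these levels were 28.9, 31.7 and 32.4%. Over the 33 CpGs read in all 22 samples, most of them around the second start site, the EtOH-exposed mean was 7.29% ± 0.88 (SD, n = 16) and the control mean 7.97% ± 0.55 (SD, n = 6), with p = 0.0982 in the exact permutation test.

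The Esrrb CpGs were also split by their level. The 51 body CpGs with a mean of both groups under 10% were at 2.16% ± 0.97 in EtOH-exposed and 2.06% ± 0.26 in control embryos (SD, n = 16 and 6). The 14 CpGs of 10 to 80% were at 49.3% ± 9.27 and 57.6% ± 3.25, and the 20 CpGs of at least 80% at 86.6% ± 4.47 and 90.8% ± 1.58 (SD, n = 16 and 6). The exact permutation p was 0.815, 0.045 and 0.0364 in this order, and 0.803, 0.0827 and 0.0719 without control 2. These classes were set after the values were seen, so these p-values, not adjusted, are a description only. EtOH-exposed 4, 5, 6 and 14, the samples low over methylated tiles, read 42.2, 33.0, 35.7 and 35.7% in the middle class, and the other 12 exposed embryos 43.7 to 65.1%. In the upper class these 4 read 83.4, 78.8, 80.4 and 80.2%, and the other 12 exposed embryos 83.3 to 91.9%. The part of their sample-wide levels in these differences was not tested. In the class under 10%, EtOH-exposed 4, 5 and 6 read 3.71, 3.57 and 3.92%, the other exposed embryos 0.77 to 2.78% and the controls 1.67 to 2.37%. The island at the second start site was at 3.10 to 5.45% in EtOH-exposed and 2.25 to 7.32% in control embryos. In the island at 41.7 to 42.0 kb the ranges were 0.581 to 4.58% and 1.64 to 3.97%. There EtOH-exposed 4, 5 and 6 read 3.92 to 4.58%. The 6 EtOH-exposed samples at 0.257 to 0.311% over unmethylated tiles read 0.58 to 3.16%, and the samples at 0.67 to 1.52% read 1.64 to 4.39%. The part of the library in these values was not tested.

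In 100 bp tiles, the unit of the study's own test, the members had 37 of 114430 tiles, 18 of them in Esrrb, 6 each in Zfp42 and Utf1, 3 in Pou5f1, 2 in Dppa5a, 1 each in Dppa2 and Tdgf1, and none in Nanog, Dppa3 and Dppa4. A differentially methylated region (DMR) was a tile with q under 0.01 in a logistic likelihood-ratio test whose levels, weighted by coverage, differed by 10 percentage points or more, and 1.14% of all tiles met this. Among the members 1 tile did, in intron 2 of Esrrb, 2.70% of the 37. Of the member tiles 10 had a q under 0.01 with no minimum difference, 5 lower and 5 higher, or 27.0% against 21.8% of all tiles. Outside the DMR the largest coverage-weighted difference was 7.43 percentage points. The logistic test counts reads as independent within an embryo, and with 1 value per embryo 2 of the 37 tiles had a p under 0.05 in the exact permutation test, against 4.48% of all tiles, and the smallest adjusted p over all tiles was 1.

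The Esrrb tile held 4 CpGs, at 22 to 261 reads per sample. Controls ranged from 29.9 to 65.2% with a median of 46.5%, and EtOH-exposed embryos from 4.65 to 59.6% with a median of 29.1%. The EtOH-exposed mean was 30.9% ± 16.7 (SD, n = 16) and the control mean 46.7% ± 11.8 (SD, n = 6), with a weighted difference of -12.5 percentage points and q = 1.1e-07. The exact permutation p over embryos was 0.048, unadjusted and for a tile picked by its difference. An F test that allows for the spread between embryos gave p = 0.092, and with it or with limma the tile was no DMR. The 8 EtOH-exposed embryos below the lowest control were numbers 2, 4, 5, 6, 8, 9, 11 and 14. Over 2781 tiles read in all 22 samples with a mean of 20 to 80%, the Esrrb tile among them, these 8 embryos averaged 44.6 to 54.8%, the other 8 EtOH-exposed embryos 56.6 to 60.0% and the controls 57.7 to 59.7%. The embryos that were low at Esrrb were also the lowest of the 16 over these tiles, and the part of this sample-wide level in the Esrrb difference was not tested. Of the 10221 tiles with a control mean of 20 to 80%, 10.9% were DMRs. The library group of all 6 controls and 7 EtOH-exposed embryos, set by the level at unmethylated tiles, was also compared. Its EtOH-exposed mean was 31.9% ± 17.3 and its control mean 46.7% ± 11.8 (SD, exact permutation p = 0.106). Without EtOH-exposed 4, 5 and 6 the weighted difference was -9.08 percentage points and the tile was no DMR, a setting chosen after seeing the data. A tile at 120 kb, also in intron 2 and named after its values were seen, was at 79.3% ± 10.5 (SD, n = 15) against 90.04% ± 3.27 (SD, n = 5), a weighted difference of -7.43 percentage points with q = 7.5e-14 (exact permutation p = 0.03). Its unweighted difference was -10.8 percentage points, by which it was a second DMR. Over the cluster that holds this tile EtOH-exposed 4, 5, 6 and 14 read 57.6, 65.6, 62.4 and 55.5%, against 68.9 to 90.6% in the other 11 exposed embryos read there and 79.7 to 89.8% in controls. The part of their low sample-wide levels was not tested here either.

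**Figure D4:**
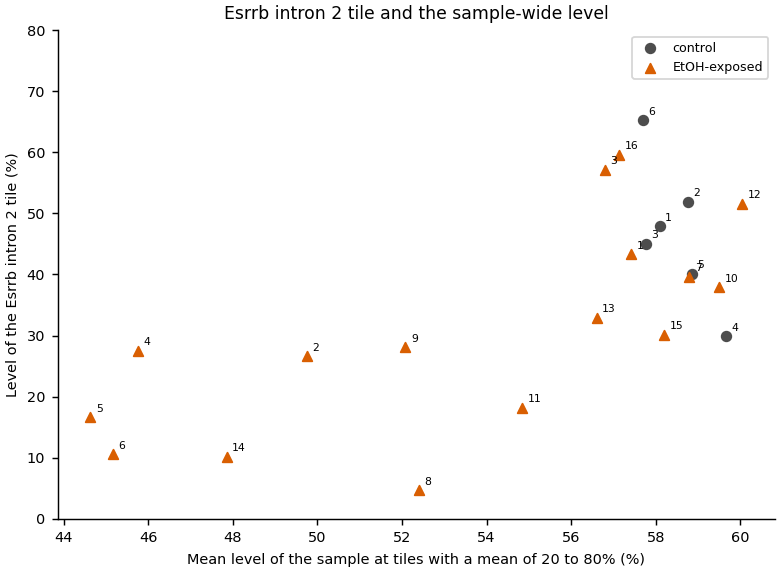
Level (%) of the Esrrb intron 2 tile in each embryo against the mean level (%) of the same embryo over 2781 tiles with a mean of 20 to 80%, with sample numbers beside the points. The 8 EtOH-exposed embryos under 55% on the horizontal axis all read 28.1% or less at Esrrb, and the other 8 and the controls 29.9% or more.

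At the other genes 1 tile each was named, the one with the smallest p. Those of Utf1 and Zfp42 printed above were higher in EtOH-exposed embryos by 0.59 and 1.74 percentage points weighted by coverage (q = 9e-05 and 0.0031). Unweighted, they were higher by 0.37 and 1.295 percentage points, with exact permutation p of 0.334 and 0.226. The tile of Dppa5a, the one with 49 other places in the genome, differed by -2.08 points weighted by coverage (q = 0.0041). Unweighted, it differed by -0.916 points (exact permutation p = 0.769). The tiles of Pou5f1, Dppa2 and Tdgf1 had q of 0.61, 0.51 and 0.59. At Utf1, EtOH-exposed 4, 5 and 6 read 2.96, 3.06 and 2.88%, above the other EtOH-exposed embryos at 0.63 to 2.28% and the controls at 1.09 to 1.43%.

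The embryos were also compared for their spread, as the mean distance from the median of their group. Group medians were not recomputed when labels were permuted, so the p-values for spread are approximate. None of the 3 member promoters had a p under 0.05 for spread, with permutation p of 0.422 for Zfp42, 0.848 for Pou5f1 and 0.906 for Dppa2. Of all promoters 4.75% had a p under 0.05 and none passed after adjustment. At Zfp42 the mean distance was 5.19 percentage points in the EtOH-exposed and 2.31 in the control group, with 7 and 5 embryos. Among the other 8 regions the Dppa4 gene body had a p of 0.0155 for spread in this permutation test, not planned for gene bodies, with an adjusted p of 0.625. Its EtOH-exposed embryos were closer to their median than controls, at 1.34 against 3.09 percentage points, over 2 CpGs. Control 6 entered at 100% from 23 reads, the fewest there, and read 93.3% over 4 CpGs of the same cluster. The Dppa4 body was the only 1 of the 6 member gene bodies, where 6.68% of 17824 gene bodies had a p under 0.05.

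Of 20 other genes of the early network 8 had a testable promoter, and in controls 7 of these 8 were under 10% and 1 at 80% or more, where 88.5% of all promoters were under 10% and 5.28% at 80% or more. The remaining 12 could not be tested. The lowest was Klf2, a Krüppel-like factor, at 0.665% ± 0.36 (SD, n = 5), and the highest Tcl1, an Akt co-activator, at 92.7% ± 2.86 (SD, n = 5). Of 8 network genes that neural progenitors also use, 5 were tested and all were under 10%, from Lin28b at 0.743% to Otx2 at 1.503%. Of 6 forebrain regulators 4 were tested, of which Sox2 and Otx2 are also among the 5 just counted, with control levels of 0.797 to 1.85%, and since transcripts were not measured these low levels do not name a cell type. No promoter of these lists had an exact permutation p under 0.05, against 2.44% of all promoters, and the largest difference was that of Tcl1, at -2.86 percentage points (p = 0.201, exact permutation test).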

How the data were processed

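Genomic DNA of 22 forebrains at E10.5 (6 control, 16 EtOH-exposed) was profiled by reduced representation bisulfite sequencing. The submitters' processing notes name Trim Galore 0.3.3 for trimming, BSMAP 2.90 for alignment, and the build mm10. The deposited files hold, for each cytosine of a CpG, counts of the reads that cover it and the percent of methylated reads, as made by the authors with no further normalization. All 2809601 autosomal positions were a CpG in GRCm38.

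For each strand at least 10 reads were required, and strands were then added. A region level was the unweighted mean over CpGs with values in at least 5 samples per condition, with at least 2 CpGs per sample. Promoters ran from 1000 bp upstream to 100 bp downstream of curated RefSeq start sites, gene bodies were the rest of the gene, upstream regions 3000 to 1001 bp before it and downstream regions 1000 bp past it. Exact two-sided permutation tests were run for every gene of chromosomes 1 to 19 and adjusted within each kind of region (Benjamini-Hochberg). Tiles of 100 bp were tested by a logistic likelihood-ratio test. CpGs under 500 bp apart formed clusters, which were described and not tested. Samples took the groups of their labels. Named were the 10 genes, for each its DMR tile or the tile of smallest p, and the highest and lowest promoters of the fixed lists. The members and lists were chosen with earlier results of these data known. Coverage minimums, weights, promoter sizes, other tests (limma 3.58.1 in R 4.3.3), library groups, pairing by number and left-out samples were tried as alternatives. Library groups were set by the level at unmethylated tiles and not by a label. Scripts used Python 3.11.15, numpy 2.4.6, scipy 1.17.1 and pandas 2.3.3, and were tested on simulated data. Copies of member tiles were searched with BLAST+ 2.17.0, at 90% identity over 80% of the length. PCR reads carry no molecular identifiers, so intervals cover counting error only.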

Additional observations from a re-analysis of the deposited data

Results flagged for a closer look

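Among the controls 2 values lay far from the others of their group among 18 places searched, a rule that chance meets in about 1 of 20 groups. Control 2 read 17.1% over the Esrrb gene body, and the other 5 controls 31.5 to 33.0%. Control 2 had 55 of the 85 CpGs, and its level was 32.5% once each CpG was taken relative to its control mean. Control 1 read 95.8% at the Dppa2 promoter tile, and the other 5 controls 87.9 to 90.7%. Control 1 had 119 reads there.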

How the results depend on the processing

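Under 36 and 32 alternatives, no member promoter that could be tested had a p under 0.05 or differed in spread. Not all 3 promoters could be tested in each setting. Without CCGG CpGs Dppa2 lost 2 of its 3 CpGs and dropped out. Zfp42 dropped out with the shorter of the promoter sizes tried. At gene bodies the count rose from 0 to 1 (Esrrb) with levels weighted by coverage, centred on control means, centred on the mean of both groups (added after seeing the data) or at a minimum of 20 reads (-6.08 percentage points, p = 0.0385, exact permutation test), and it ranged from 0 to 1 with 1 sample left out. In these settings, in the order named, 22.1, 11.5, 13.1 and 10.6% of all gene bodies had a p under 0.05. For upstream and downstream regions the count rose from 0 to 1 with weighted levels (Utf1 downstream, -2.60 percentage points, exact permutation p = 0.0209) and without EtOH-exposed 4, 5 and 6 (Dppa5a). With weighted levels 6.35% of all downstream regions had a p under 0.05, and without these 3 samples 9.05% of all upstream regions. The count was 0 with any 1 sample left out. The DMR count of 1 stayed at 1 with any 1 sample left out. It fell to 0 with overdispersion (F test), with limma, at 20 percentage points, at 20 reads, without CCGG CpGs and without EtOH-exposed 4, 5 and 6, and rose to 2 with unweighted means. Over all tiles the DMRs numbered 1299, then 0 with overdispersion, 0 with limma, 101, 553, 504, 445 and 1957. Fewer tiles were analysed at 20 reads and without CCGG CpGs (76153 and 86033). The cause of these changes was not tested.

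Samples with the same number shared only a number: the correlations of their deviations over 12256 gene bodies ran from -0.114 to 0.129. With the replicate block for samples 1 to 6 the counts were 0 at promoters, 0 at gene bodies, 0 outside genes and 1 DMR, the same as for these samples unpaired. A region without complete pairs at all 6 numbers could not reach p under 0.05 in the paired test. This held for both regions outside genes, the Pou5f1 and Zfp42 promoters and the Pou5f1 and Tdgf1 bodies. Unpaired, these 2 promoters and the Tdgf1 body had too few exposed embryos to be tested. Of 682 single values recomputed, 669 kept their side of the threshold and 55 of these changed sign with no p past it. Nanog and Dppa3 had no tested region, and the Tdgf1 promoter was read in 1 control and that of Utf1 in 4.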
